A study of Mus musculus with 24 samples.

Results

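To ask how loss of one BAF subunit differs from loss of another, male mouse embryonic stem cells (mESCs) with a *Smarcc1* knockdown were compared directly with cells with a *Smarca4* knockdown on the same day of differentiation. The libraries were chosen by their titles: 8 *Smarcc1* knockdown libraries (hairpins Smarcc1.6 and Smarcc1.7) and 8 *Smarca4* knockdown libraries (hairpins Smarca4.4 and Smarca4.6), which makes 16 of the 24 RNA-seq samples of the series. A further 4 samples of the nonsilencing control hairpin (Nons) took no part in the main comparison, entered only 1 alternative fit, and are given as a background level, and the other 4, Nons replicate 2, were not analysed here. All groups were C57/Bl6 male mESC lines that had been grown in 2i (inhibitors of MEK and GSK3), weaned into serum-containing medium to differentiate, transduced with a hairpin on day 2 and put under puromycin on day 3. RNA was taken on days 4, 5, 6 and 7, with 1 library for each hairpin and day. A knockdown is therefore represented by 2 hairpins and not by separately derived cell lines, and no source states that the libraries came from separate cultures, so the *p*-values below measure the spread between hairpins. A genotype label calls the *Smarca4* libraries a Smarcc knockdown, and the titles were followed.

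The BAF (SWI/SNF) complex is an ATP-dependent chromatin remodeller that slides and evicts nucleosomes. Its motor is an ATPase, here Smarca4 (Brg1), while Smarcc1 (Baf155) has no enzymatic activity and acts as a structural scaffold that helps to hold the other subunits together. The form of the complex found in mESCs is built on these proteins, is needed to keep the pluripotent state, and also takes part in shutting that state down when cells differentiate.

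The hairpins are shown because each knockdown rests on only a pair of them. The guide strand, which pairs with the mRNA, is written 5′ to 3′ with its seed (bases 2 to 8) in capitals.
Smarcc1.6: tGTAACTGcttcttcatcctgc
Smarcc1.7: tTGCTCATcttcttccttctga
Smarca4.4: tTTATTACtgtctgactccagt
Smarca4.6: tTGCATAAtagtgttcatcagt
Each 22-base guide had an exact full-length match in transcripts of its own target gene and of no other gene in GENCODE M21 (GRCm38, the same build as mm10). The 4 seeds differed from each other. Seed or partial matches in other genes were not searched, so this match does not show that a hairpin is specific. The Smarcc1.6 site is in the coding sequence in exon 13 of 29 (chr9:110177472-110177493, + strand) and the Smarcc1.7 site is in the coding sequence in exon 11 (chr9:110173911-110173932, + strand). The Smarca4.6 site is in the coding sequence in exon 22 of 34 (chr9:21670504-21670525, + strand), whereas the Smarca4.4 site is in the 3′ UTR in exon 34 (chr9:21703327-21703348, + strand).

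Levels are library-scaled read counts (rpm), which are not corrected for transcript length, so they compare a gene between libraries and not genes with each other. Library totals were 15754138 to 22472113 reads in *Smarcc1* knockdown and 6829596 to 23551166 in *Smarca4* knockdown. The smallest was the Smarca4.4 library of day 5, and 3 reads, used here as the detection limit, were worth 0.127 to 0.439 rpm across the 16 libraries. The labelled cell type could be seen in its markers: *Pou5f1*, which encodes the pluripotency factor Oct4, was at 1171 to 1501 rpm in the 4 knockdown libraries of day 4 and at 131 to 384 rpm on day 7. Genes whose levels averaged under 1 rpm were not tested. This left out 32 of 35 *Hox* genes, 11 of 16 primitive streak genes and 11 of 18 cardiac and lateral mesoderm genes, but only 4 of 16 primitive and visceral endoderm genes and 4 of 15 trophoblast genes. The filter used the log2 mean over all 16 libraries, so a gene could pass through its higher group alone. Among called genes named below this held for *Gm14569*, *Gsx1*, *Gjb1*, *Gm7325*, *Fbxo40*, *Accsl*, *Gm1141*, *Gm14455*, *Prdm14*, *Sox18*, *Rfx6*, *Isg15* and *Rsad2*.

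First the targeted genes were compared. *Smarcc1* (chr9:110132037-110240178) was at 163, 61.5, 43.6 and 71.5 rpm on days 4 to 7 with Smarcc1.6 and at 192, 109, 76.4 and 80.9 rpm with Smarcc1.7. In the *Smarca4* knockdown it was at 498, 326, 242 and 184 rpm with Smarca4.4 and at 449, 210, 149 and 209 rpm with Smarca4.6, beside 451, 260, 127 and 172 rpm in Nons. The libraries of the knockdowns did not overlap on any day. The difference, *Smarcc1* minus *Smarca4* knockdown on the log2 scale and averaged over days, was -1.54 (SE 0.168, adjusted *p* = 0.000343 by limma with Benjamini-Hochberg adjustment over all genes tested), so that *Smarcc1* mRNA in its own knockdown was 0.343 of its level in the other.

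*Smarca4* (chr9:21616169-21704230) was at 56.0, 49.5, 50.0 and 42.2 rpm with Smarca4.4 and at 62.9, 36.3, 19.5 and 43.6 rpm with Smarca4.6. With Smarcc1.6 it was at 258, 90.8, 96.7 and 195 rpm and with Smarcc1.7 at 249, 236, 202 and 199 rpm, against 222, 151, 90.4 and 160 rpm in Nons. Again the knockdowns did not overlap on any day, although the 2 *Smarcc1* hairpins were far apart from each other on days 5 and 6. The difference was 2.06 (SE 0.235, limma adjusted *p* = 0.00046), a 4.17-fold higher level in *Smarcc1* knockdown. Both targets also passed with the hairpin series as a replicate block (adjusted *p* = 0.00263 and 0.00464). Each knockdown therefore lowered its own target relative to the other, and in fold terms the *Smarca4* contrast was the larger.

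**Figure D1:**
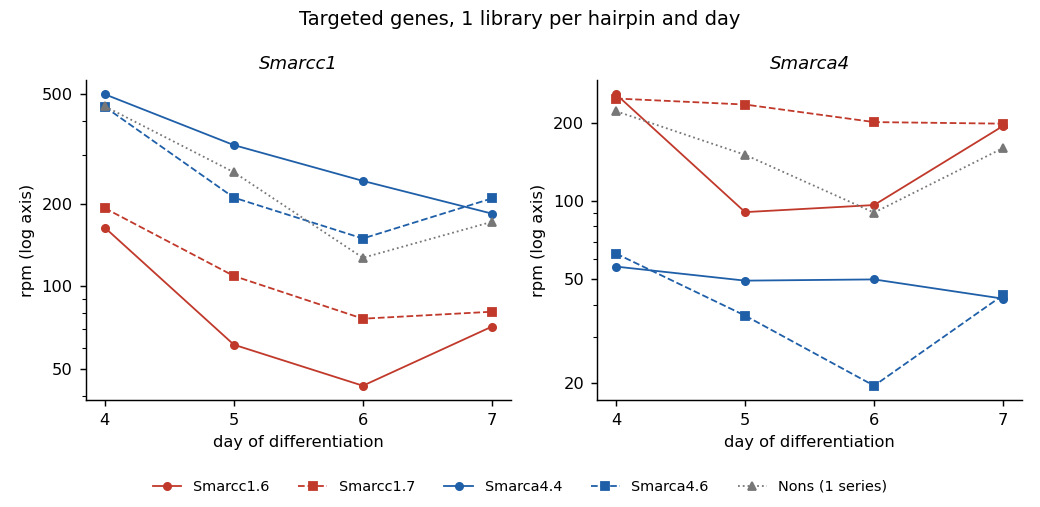
Levels of *Smarcc1* (left) and *Smarca4* (right) in rpm on a log axis against the day of differentiation, 1 point per library, with lines joining the libraries of a hairpin. The *Smarcc1* hairpins (red) lie below the *Smarca4* hairpins (blue) for *Smarcc1* and above them for *Smarca4* on all 4 days.

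The other BAF subunits were then examined. Of 24 further members of the BAF and PBAF lists that passed the filter, limma called none (2 at an unadjusted *p* under 0.05; limma-voom on recovered reads also called none and had 2). Their differences ran from -0.32 for *Bcl7c* to 0.32 for *Dpf1*, with a median of 0.01. The closest paralogs of the targets were among them. *Smarcc2*, the paralog of *Smarcc1*, was at 25.2 rpm in *Smarcc1* knockdown and 28.2 rpm in *Smarca4* knockdown (difference -0.18, SE 0.20, 95% interval -0.62 to 0.26). *Smarca2* (Brm), the alternative ATPase, was at 6.45 and 5.49 rpm (difference 0.28, SE 0.16, interval -0.06 to 0.63). *Phf10*, a PBAF subunit, was at 120.0 and 104 rpm (difference 0.19). The spread between hairpins of the same target was set beside these differences by day. On day 5 the larger of both hairpin gaps exceeded the knockdown difference for 22 of these 24 genes, and 20 of 24 were lower with Smarcc1.6 than with Smarcc1.7, by a median of 0.46. The larger gap exceeded the knockdown difference for 19 of 24 on day 4 and 20 of 24 on day 6, but for only 10 of 24 on day 7. Taking the larger of a pair of gaps favours the gap.

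Across the genome, 13350 genes passed the filter and 577 of them (4.32%) differed between the knockdowns at an adjusted *p* under 0.05 (limma). Of these, 367 (2.75% of genes tested) were higher in *Smarcc1* knockdown and 210 (1.57%) were lower. With the hairpin series as a replicate block 113 genes (0.846%) were called, 85 higher and 28 lower, in a fit that allows for the days of a hairpin not being independent, and leaving out 1 hairpin at a time left 67 to 271 calls. Quantile normalization gave 303 higher and 267 lower, moving the split from 63.6% to 53.2% higher. Without the small Smarca4.4 library of day 5, 1109 genes were called. In bulk RNA, fewer cells expressing a gene and less RNA per cell cannot be told apart.

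The direction was related to expression level and to size. The genes higher in *Smarcc1* knockdown had a median level of 5.57 rpm and 125 of 367 differed at least 2-fold. The genes lower in *Smarcc1* knockdown had a median level of 15.4 rpm and 24 of 210 differed at least 2-fold, beside a median level of 22.8 rpm over all genes tested. Among genes at a mean of at least 10 rpm, 249 (2.76%) were called, 125 higher and 124 lower. Median library values moved with the groups on day 7, at 0.87 and 0.85 (log2 rpm over all entries) in *Smarcc1* knockdown and 0.46 and 0.45 in *Smarca4* knockdown, and their part in the result was not tested beyond the scalings given.

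**Figure D2:**
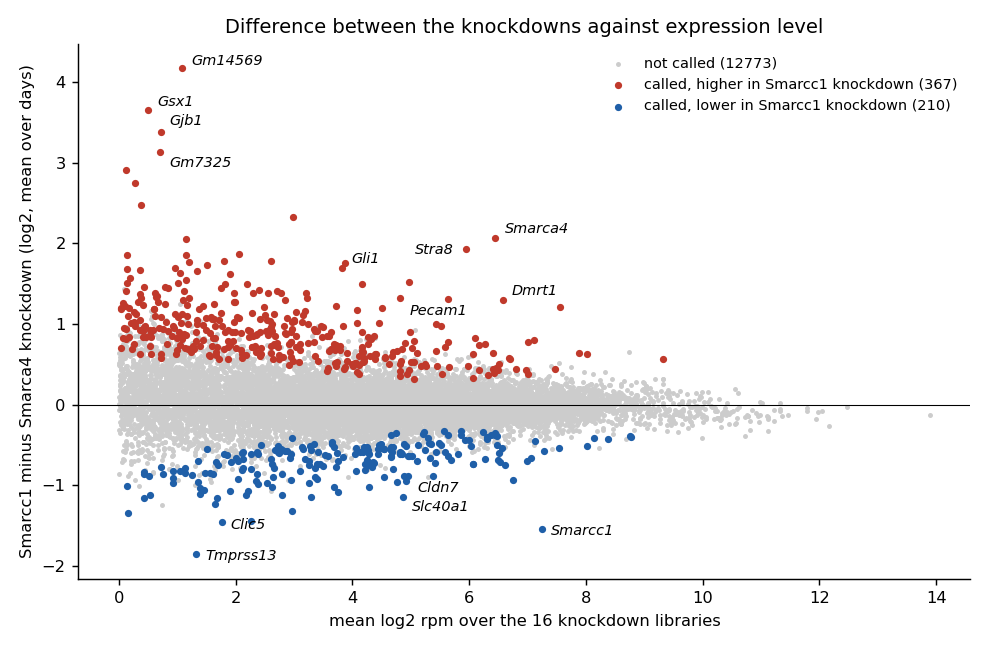
Difference between the knockdowns (log2, mean over days) against the mean log2 rpm over the 16 libraries, 1 point per gene, with called genes in colour. The 367 genes higher in *Smarcc1* knockdown include many at low level, and the targeted genes *Smarca4* and *Smarcc1* lie at 2.06 and -1.54.

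The called genes were also followed in Nons, which took no part in choosing them. Of the 367 genes higher in *Smarcc1* knockdown, 267 (72.8%) were lower on day 7 than on day 4 in the Nons series, with a median change of -1.56 on the log2 scale. Of the 210 genes lower in *Smarcc1* knockdown, 30 (14.3%) were lower on day 7, and their median change was 1.85. Over all genes tested 49.9% were lower on day 7 and the median change was 0.0034. Genes that were higher in *Smarcc1* than in *Smarca4* knockdown were thus mostly genes that went down in the control as it differentiated, and genes that were lower were mostly genes that went up. By level, 225 of the 367 (61.3%) had their Nons mean below both knockdowns and 117 between them, beside 48.5% below both over all genes tested. For the 210 the numbers were 43 below (20.5%), 114 between and 53 above. The control is a single series, and these counts carry no test.

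The number of genes called on a single day depended on the libraries in the fit. With all 16, limma called 0 genes (0%) on day 4 (304 at an unadjusted *p* under 0.05; 0 by limma-voom), 1 gene (0.00749%) on day 5, 40 (0.300%) on day 6 and 192 (1.44%) on day 7, of which 34 (0.255%) and 182 (1.36%) were higher in *Smarcc1* knockdown. Without the small Smarca4.4 library of day 5, which leaves Smarca4.6 alone on that day, the counts were 0, 534, 77 and 254, so that day 5 had the most. Without the whole Smarca4.4 series they were 0, 54, 10 and 21, without Smarca4.6 0, 0, 7 and 24, without Smarcc1.7 0, 0, 0 and 13, and without Smarcc1.6 0 on each day. In these fits the lone hairpin left is assumed to vary like the other groups. Among the 367 higher genes the median difference was 0.35, 0.57, 1.11 and 1.40 on days 4 to 7. Among the 210 lower genes it was -0.37, -0.83, -0.80 and -0.66, largest on day 5. Since the genes were chosen on their mean over days, these medians are a description. The test of whether a gene's difference changed with day called none (0%; 538 at an unadjusted *p* under 0.05; 4.03%; limma-voom called 2, *Lefty2* and *Accsl*).

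Distances between whole libraries put these differences in proportion. On day 7 the libraries of different knockdowns were 116 apart on average (Euclidean distance over all log2 values), and the hairpins of 1 target were 90.3 (*Smarcc1*) and 88.1 (*Smarca4*) apart. On day 5 the pairs between knockdowns averaged 159, between the *Smarcc1* pair at 126 and the *Smarca4* pair at 200, which holds the smallest library. Averaged over days the knockdowns were 8.37 further apart than hairpins of 1 target, with an SD over the 4 days of 13.0. The excess was smaller than its spread between days, and on day 7 alone it was 26.7. Among genes at a mean of 10 rpm or more it was 0.569 (SD 10.7), on distances of 39.1 between knockdowns and 38.5 between hairpins.

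**Figure D3:**
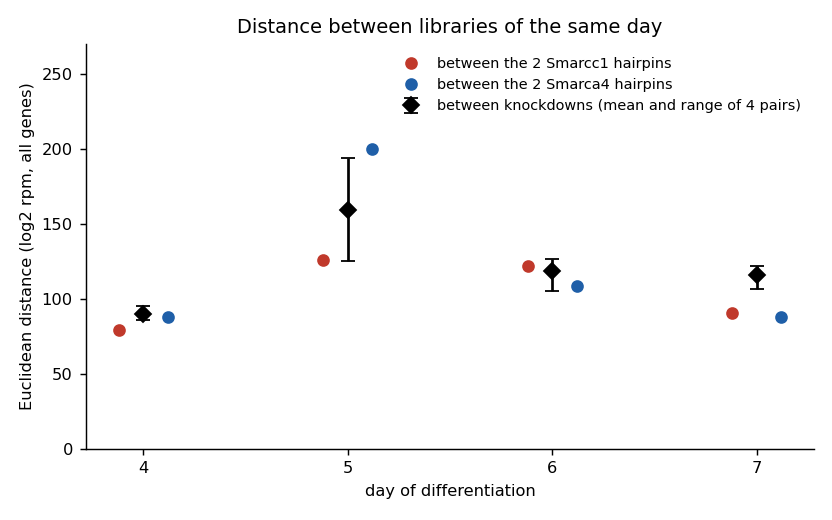
Euclidean distance between libraries of the same day over all log2 rpm values, against the day. Diamonds give the mean and range of the 4 pairs between knockdowns, and circles the pair of hairpins of each target, with the day 7 diamond at 116 above both circles at 90.3 and 88.1.

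Genes of the germline were among those with the largest differences. *Stra8* (chr6:34920163-34939342), which is switched on by retinoic acid as germ cells enter meiosis, was at 28.0, 307, 310 and 186 rpm on days 4 to 7 with Smarcc1.6 and at 25.3, 150, 173 and 132 rpm with Smarcc1.7. It was at 7.09, 49.8, 31.0 and 32.4 rpm with Smarca4.4 and at 10.1, 69.6, 76.0 and 51.4 rpm with Smarca4.6, while Nons had 12.8, 19, 8.84 and 5.06 rpm. Both *Smarcc1* hairpins were above both *Smarca4* hairpins on each day, and from day 5 both knockdowns were above Nons. The difference was 1.93 (SE 0.23, adjusted *p* = 0.000504), or 3.81-fold.

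*Dmrt1* (chr19:25505618-25604329), a transcription factor of the male germline, had the same order. It was at 113 to 184 rpm over the 8 *Smarcc1* libraries, at 44.3 to 84.0 rpm over the 8 *Smarca4* libraries and at 12.7 to 37.5 rpm in Nons, so that the groups did not overlap even across days (difference 1.29, SE 0.14, adjusted *p* = 0.000323). Its relative *Dmrtb1* was at 1.41 and 1.77 rpm on day 4 in *Smarcc1* knockdown, 1.24 and 1.10 rpm in *Smarca4* knockdown and 2.07 rpm in Nons. The knockdowns then moved further apart. *Dmrtb1* reached 25.2 and 21.2 rpm on day 7 in *Smarcc1* knockdown against 3.98 and 4.21 rpm in *Smarca4* knockdown (difference 1.50, SE 0.12, limma adjusted *p* = 8.14e-05). *Rec8*, the meiotic cohesin subunit, was at 77.9 and 81.9 rpm against 18.6 and 24.2 rpm on day 7, but overlapped on day 4 and day 5 (difference 0.81, adjusted *p* = 0.022, 0.106 with the replicate block).

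These genes did not stand for the germline list as a whole. Of the 23 germline and meiosis genes tested, 3 were higher in *Smarcc1* knockdown (*Stra8*, *Dmrtb1* and *Rec8*), beside 2.75% of all genes tested, none was lower, and the median difference was 0.089 beside 0.0009 over all genes. The list median was -0.016 without Smarcc1.6, 0.060 without Smarca4.4, 0.22 without Smarcc1.7 and 0.28 without Smarca4.6. *Ddx4* and *Mael*, which act in the piRNA pathway of germ cells, had values of -0.27 and -0.43 and did not pass the test.

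Some pluripotency genes were higher in *Smarcc1* knockdown. Of 15 genes of the naive state, 6 were higher and none lower, beside 2.75% of all genes tested that were higher, and the median difference was 0.47. With the replicate block 3 were called, and without Smarcc1.6 none was (8 at an unadjusted *p* under 0.05 by limma), although the median without it was 0.53. *Nr5a2*, an orphan receptor that can activate *Pou5f1*, was at 34.7, 11.4, 5.34 and 4.21 rpm with Smarcc1.6 and at 27.8, 9.72, 4.00 and 3.18 rpm with Smarcc1.7. In *Smarca4* knockdown it was at 21.0, 4.10, 1.44 and 1.78 rpm with Smarca4.4 and at 18.6, 1.57, 1.40 and 1.30 rpm with Smarca4.6. The level was lower on day 7 than on day 4 in each series, and on each day the *Smarcc1* hairpins were the higher (difference 1.42, SE 0.19, adjusted *p* = 0.00121). *Klf4*, a factor of the naive network and of reprogramming, was at 4.98 and 5.01 rpm on day 6 in *Smarcc1* knockdown and at 1.96 and 1.84 rpm in *Smarca4* knockdown (difference 1.11, SE 0.16, adjusted *p* = 0.00195).

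*Prdm14*, which opposes the exit from naive pluripotency and is needed for primordial germ cells, differed by 1.68 (SE 0.22, limma adjusted *p* = 0.00105), and was at 1.65 and 1.43 rpm on day 7 against 0.183 and 0.296 rpm. It averaged under the filter level in *Smarca4* knockdown and was tested only because of the *Smarcc1* libraries. *Nr5a2*, *Klf4* and *Prdm14* also passed with the replicate block (adjusted *p* = 0.0116, 0.0294 and 0.0168). *Nr0b1* (0.89), *Esrrb* (0.60) and *Tcl1* (0.75) passed without the block only, with block *p*-values of 0.0778, 0.252 and 0.221. The median of the naive list was 0.35, 0.29, 0.59 and 0.97 on days 4 to 7, and over all genes it was 0.0011, -0.11, 0.052 and 0.076. Averaged over days, the naive median was 0.30 without Smarca4.4, 0.50 without Smarca4.6 and 0.46 without Smarcc1.7.

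Of 10 core pluripotency genes, beside 2.75% of all genes tested that were higher, *Pou5f1* (0.56, adjusted *p* = 0.0499) and *Sox2* (0.38, adjusted *p* = 0.0301) were higher, none was lower, and neither passed with the replicate block (0.172 and 0.193). On day 7 *Pou5f1* was at 384 and 261 rpm in *Smarcc1* knockdown and at 131 and 142 rpm in *Smarca4* knockdown, with Nons at 227 rpm. *Nanog*, the third factor of the core, was at 202 and 172 rpm on average (0.25, limma adjusted *p* = 0.352). The list median of 0.23 was 0.015 without Smarcc1.6, with 6 of 10 positive, and 0.27 without Smarcc1.7. It was 0.24 without Smarca4.4 and 0.16 without Smarca4.6. In fits without 1 hairpin the calls of this list were mostly lost. With each hairpin averaged over days, 2 against 2, *Pou5f1* and *Sox2* did not pass by limma (adjusted *p* = 0.484 and 0.631).

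Some signalling genes that sustain pluripotency were higher too. In the LIF and Stat3 pathway 3 of 13 genes were higher, beside 2.75% of all genes tested, and none was lower, *Klf4* above and both receptor chains, *Lifr* (0.64, adjusted *p* = 0.0094) and *Il6st* (gp130; 0.51, adjusted *p* = 0.0223), which lost the call with the replicate block (0.0943 and 0.160). In the Nodal pathway 3 of 16 were higher and none lower. Without Smarcc1.6, Smarca4.4 or Smarca4.6 there was 1 call in the Nodal pathway, and in the LIF and Stat3 pathway there were 0 without Smarcc1.6 (5 at an unadjusted *p* under 0.05 by limma) and 1 when any other hairpin was left out. The Nodal pathway genes called with all libraries were the ligands *Nodal* (0.50, adjusted *p* = 0.0129, block 0.0861) and *Gdf3* (0.72, adjusted *p* = 0.0084, block 0.0534) and the feedback inhibitor *Lefty2*. *Lefty2* was at 53.5, 101, 152 and 135 rpm with Smarcc1.6 and at 52.1, 95.8, 143 and 135 rpm with Smarcc1.7, against 47.4, 110, 74.9 and 36.5 rpm with Smarca4.4 and 57.9, 96.6, 58.6 and 34.5 rpm with Smarca4.6. The groups overlapped on days 4 and 5 and were apart on days 6 and 7. Averaged over days the difference was 0.76 (SE 0.087, adjusted *p* = 0.000493, block 0.00719).

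*Lefty2* was also the gene with the smallest *p* for a difference that changed with day (adjusted *p* = 0.0636 by the limma *F* test, and 0.0206 with the replicate block). The others singled out by this test at 10 rpm or more were *Trh*, *Pipox*, *Gas6*, *Pecam1* and *Jam3*, with adjusted *p*-values of 0.207 to 0.365. *Trh*, the precursor of thyrotropin-releasing hormone, had a difference of 0.0048 on day 4 and was at 8.69 and 8.36 rpm against 1.37 and 0.83 rpm on day 7, and *Pipox*, a peroxisomal oxidase, had 0.22 on day 4 and 2.18 on day 7.

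**Figure D4:**
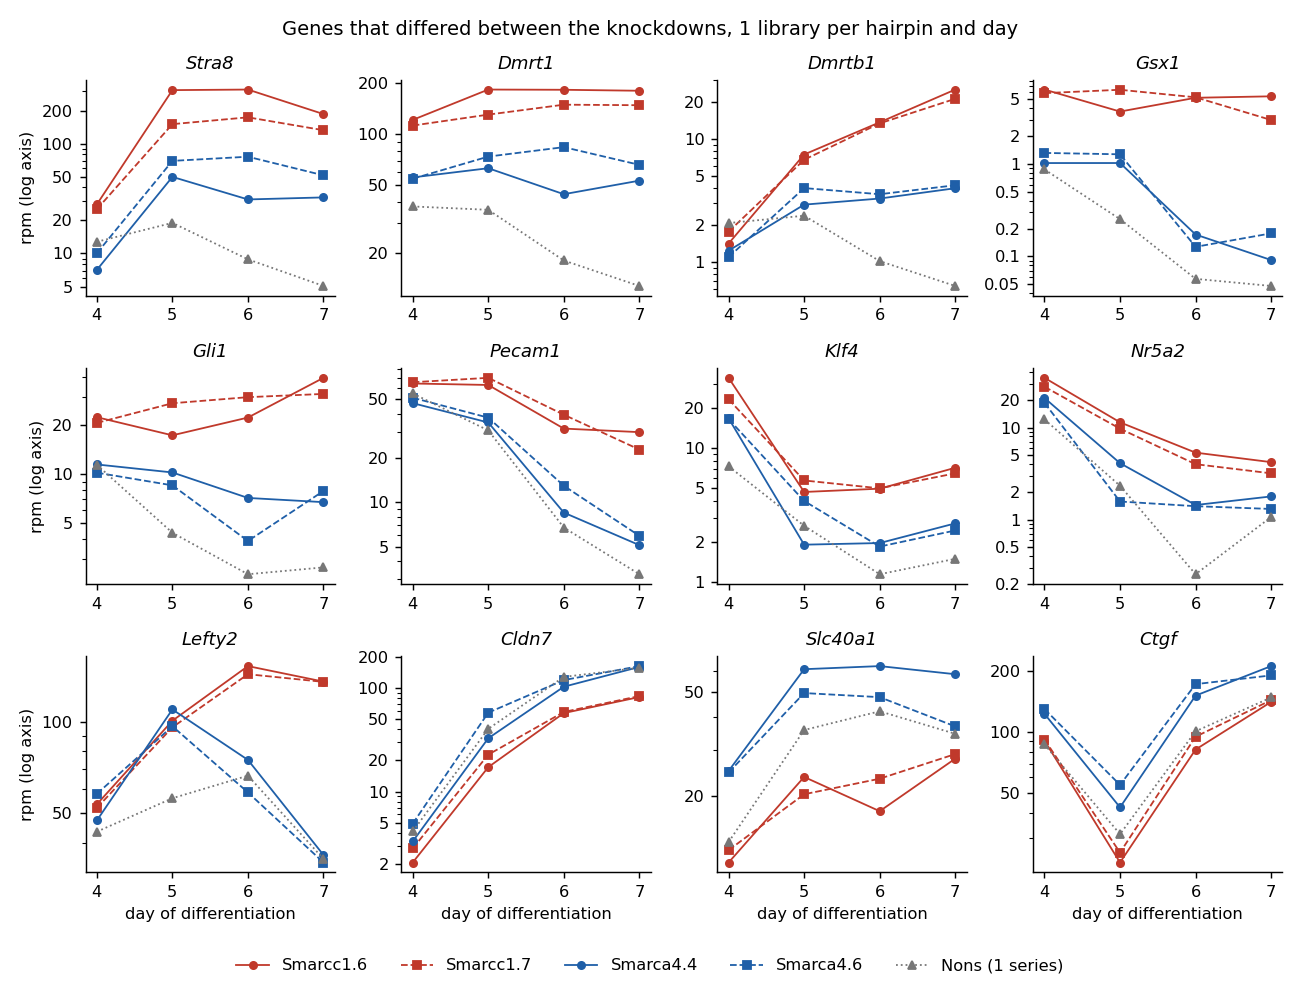
Levels of 12 genes in rpm on log axes against the day of differentiation, 1 point per library. The *Smarcc1* hairpins (red) lie above the *Smarca4* hairpins (blue) on every day for *Stra8*, *Dmrt1*, *Dmrtb1*, *Gsx1*, *Gli1*, *Pecam1*, *Klf4* and *Nr5a2*, on days 6 and 7 for *Lefty2*, and below them on every day for *Cldn7*, *Slc40a1* and *Ctgf*.

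The largest single differences were in genes of other lineages and of unknown function. The hairpins of one knockdown lay wholly above or below those of the other on each of the 4 days for 409 genes (3.06% of genes tested), 210 higher (1.57%) and 199 lower (1.49%) in *Smarcc1* knockdown. Of these 281 (2.10%) were also called, and the 12 with the largest positive differences were *Gm14569*, *Gsx1*, *Gjb1*, *Gm7325*, *Fbxo40*, *Accsl*, *Gm1141*, *Sez6*, *Stra8*, *Neurog3*, *Gm14455* and the target *Smarca4*. *Gsx1* (chr5:147188696-147190947), a homeobox gene of neural progenitors, was at 6.39, 3.69, 5.21 and 5.40 rpm with Smarcc1.6 and at 5.84, 6.36, 5.27 and 2.99 rpm with Smarcc1.7. With Smarca4.4 it was at 1.02, 1.02, 0.173 and 0.0915 rpm and with Smarca4.6 at 1.32, 1.27, 0.127 and 0.178 rpm, which on days 6 and 7 is 2 or 3 reads. Nons was at 0.874 rpm on day 4 and had fewer than 3 reads on days 6 and 7. On days 6 and 7 only the *Smarcc1* libraries kept the gene well above detection (difference over days 3.65, SE 0.21, limma adjusted *p* = 4.77e-06). *Gsx1* averaged under the filter level in *Smarca4* knockdown and was tested only because of the *Smarcc1* libraries.

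*Gm14569*, a predicted X-linked gene, had the largest difference of all genes tested (4.17, SE 0.42, limma adjusted *p* = 0.000217). Like *Gsx1*, *Gjb1*, *Gm7325*, *Accsl* and *Fbxo40*, it averaged under the filter level in *Smarca4* knockdown and was tested only because of the *Smarcc1* libraries. It was at 5.25, 16.9, 10.7 and 7.87 rpm with Smarcc1.6 and at 4.49, 17.0, 11.1 and 6.74 rpm with Smarcc1.7, whereas the 8 *Smarca4* libraries had 0.0915 to 2.64 rpm. *Gjb1* (connexin 32), *Gm7325*, *Accsl* and *Fbxo40* differed by 3.38, 3.13, 2.75 and 2.91, but each had at least 1 *Smarca4* library without a read, so the size of these differences depends on the value given to a gene without reads. *Gm7325* was at 8.99, 9.88, 5.47 and 1.83 rpm with Smarcc1.6 and, with Smarca4.4, at 1.84 rpm on day 4 and without a read on day 7. *Neurog3*, the factor that starts endocrine differentiation, was at 5.75 to 13.2 rpm against 1.15 to 4.59 rpm (1.87, adjusted *p* = 0.000323), and overlaps an entry on the other strand. *Gm14455*, which overlaps *Cass4* on the opposite strand, has the same limit (1.86, adjusted *p* = 0.0018).

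Among genes fully apart on each day and at 10 rpm or more, the largest positive differences beside *Smarca4*, *Stra8* and *Dmrt1* were *Gli1*, *Ephx2*, *Pecam1*, *Fez1* and *Spp1*. *Gli1* (chr10:127329889-127341589), a transcription factor and target of Hedgehog signalling, was at 17.4 to 39.3 rpm in the 8 *Smarcc1* libraries and at 3.88 to 11.5 rpm in the 8 *Smarca4* libraries, with no overlap across days (difference 1.69, SE 0.15, adjusted *p* = 0.000109). It shares sequence with *Arhgap9* on the opposite strand, and strand use in the counting is not stated. *Ephx2*, an epoxide hydrolase, was at 15.9 and 12.3 rpm on day 4 and 87.9 and 74.6 rpm on day 7 in *Smarcc1* knockdown, against 10.1 and 10.4 and then 14.9 and 19.2 rpm in *Smarca4* knockdown (1.52, adjusted *p* = 0.000109).

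*Pecam1* (CD31), an adhesion molecule of endothelium that is also present on undifferentiated mESCs, was at 64.1, 62.7, 31.7 and 30.0 rpm with Smarcc1.6 and at 65.4, 70.1, 39.4 and 22.8 rpm with Smarcc1.7. In *Smarca4* knockdown it went from 47.2 and 51.3 rpm on day 4 to 5.12 and 5.93 rpm on day 7, and in Nons to 3.25 rpm. The *Smarcc1* libraries were the highest on each day. On the log2 scale the difference was widest on day 7 at 2.25 (mean over days 1.32, SE 0.11, limma adjusted *p* = 9.37e-05). *Spp1* (osteopontin) was at 214 to 398 rpm against 64.9 to 203 rpm (1.21, adjusted *p* = 0.000634), and *Fez1* at 9.71 to 47.8 rpm against 2.24 to 30.0 rpm (1.23, adjusted *p* = 0.00336).

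Single genes of several lineage lists were higher as well. In the blood and endothelial list *Pecam1* and the endothelial factor *Sox18* (1.46, limma adjusted *p* = 0.00117) were higher among 8 tested, beside 2.75% of all genes tested. *Sox18* averaged under the filter level in *Smarca4* knockdown and was tested only because of the *Smarcc1* libraries. In the primitive and visceral endoderm list the median was 0.43, and 0.19 to 0.61 when 1 hairpin was left out. In those fits fewer genes were called higher than with all libraries, and without Smarcc1.7 a gene of the list was called lower. With all libraries 3 of 12 were higher, beside 2.75% of all genes tested. These were the endocytic receptor *Cubn* (1.66, adjusted *p* = 0.00105), its partner *Amn* (0.62, adjusted *p* = 0.0458, block 0.280) and *Pdgfra* (0.86, adjusted *p* = 0.0457, block 0.284), with *Cubn* overlapping an antisense entry. *Col1a2*, a chain of type I collagen, was at 51.7 and 38.3 rpm on day 7 against 14.0 and 6.93 rpm (1.85, SE 0.29, adjusted *p* = 0.00329) and was the only one of 9 fibroblast and mesenchyme genes called. *Neurod1* was the only one of 11 neural genes (0.90, adjusted *p* = 0.0409, block 0.278), and *Wnt8a* the only one of 15 Wnt pathway genes (0.64, adjusted *p* = 0.0141, block 0.130). Among 26 imprinted genes *Usp29* (1.28, limma adjusted *p* = 0.000858) and *Nnat* (0.97, adjusted *p* = 0.0063, block 0.0674) were higher and *H19* was lower (-0.41, adjusted *p* = 0.0389, block 0.237). Of all genes tested 2.75% were higher and 1.57% lower. The imprinted median was 0.065, and -0.038 to 0.18 when 1 hairpin was left out.

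In the other direction, some epithelial genes were lower in *Smarcc1* knockdown. Of 19 epithelial and junction genes 5 were lower, beside 1.57% of all genes tested, 1, *Gjb1*, was higher and 13 were not called, with a median difference of -0.33. With the replicate block 2 were lower, without Smarcc1.6 only 1 was, and without Smarca4.6 none was (10 of 19 at an unadjusted *p* under 0.05 by limma, in either direction), with medians of -0.24 and -0.42 when these hairpins were left out. *Cldn7* (chr11:69964779-69967885), a claudin of epithelial tight junctions, was at 2.05, 17.2, 57.5 and 82.2 rpm with Smarcc1.6 and at 2.81, 22.8, 59.0 and 84.0 rpm with Smarcc1.7. With Smarca4.4 it was at 3.29, 32.8, 103 and 161 rpm, with Smarca4.6 at 4.89, 58.0, 120 and 164 rpm and in Nons at 4.11, 40.5, 129 and 158 rpm. *Cldn7* was highest on day 7 in each series, and the *Smarcc1* libraries had differences of -0.74, -1.14, -0.94 and -0.97 on days 4 to 7 (mean difference -0.95, SE 0.14, adjusted *p* = 0.0026, block 0.0189).

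The claudins *Cldn3* (-1.02, adjusted *p* = 0.00283, block 0.0322) and *Cldn4* (-0.70, adjusted *p* = 0.00967, block 0.0778) were lower as well, *Cldn3* with overlap on day 4. *Krt8*, a keratin of simple epithelia, was at 766 and 662 rpm on day 7 against 1336 and 831 rpm (-0.75, adjusted *p* = 0.00706, block 0.073), and its partner *Krt18* was at 755 and 803 rpm against 1503 and 1103 rpm (-0.66, adjusted *p* = 0.0204, block 0.142). *Krt7* (-0.73, adjusted *p* = 0.00498, block 0.0638), *Krt8* and *Krt18* were also the 3 genes called among 11 trophoblast genes, all lower, beside 1.57% of all genes tested, with a list median of -0.40. They were called again without Smarca4.4, and none was called by limma without Smarcc1.6, Smarcc1.7 or Smarca4.6 (3, 5 and 6 at an unadjusted *p* under 0.05). The called members of that list are keratins shared by simple epithelia. *Cdh1* (E-cadherin), at 468 and 550 rpm, had a difference of -0.24 and did not pass (adjusted *p* = 0.496).

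The 12 largest negative differences fully apart on each day were those of the target *Smarcc1*, *Tmprss13*, *Clic5*, *Ddx60*, *Dhrs3*, *Slc40a1*, *Rab25*, *Cda*, *Pdlim3*, *1300014I06Rik*, *Tmem54* and *Ppp4r4*, and at 10 rpm or more also *App*, *Cldn7*, *Cst3* and *Irgm1*. *Slc40a1* (ferroportin, the iron exporter; chr1:45908070-45925594) was at 11.1, 23.6, 17.4 and 27.7 rpm with Smarcc1.6 and at 12.4, 20.3, 23.2 and 28.9 rpm with Smarcc1.7. It was at 24.9, 61.1, 62.8 and 58.4 rpm with Smarca4.4, at 24.6, 49.5, 47.7 and 36.9 rpm with Smarca4.6 and at 13.3, 35.7, 42.1 and 34.5 rpm in Nons, so the control lay between the knockdowns (difference -1.14, SE 0.12, adjusted *p* = 0.00033, block 0.00318). *Rab25*, an epithelial GTPase of membrane recycling, was at 4.02 to 11.1 rpm against 6.36 to 27.4 rpm (-1.14, adjusted *p* = 0.00024, block 0.00337). *Clic5* (-1.45, adjusted *p* = 0.000511) and *Pdlim3* (-1.08, adjusted *p* = 0.000398), which both bind the actin cytoskeleton, were higher on day 7 than on day 4 in each series and lower in *Smarcc1* knockdown on each day. *Tmprss13*, a membrane serine protease, differed by -1.86 (SE 0.24, adjusted *p* = 0.00108) and overlaps an entry on the other strand.

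Among the rest, *Ddx60* (-1.44, block 0.0467), *Tmem54* (-1.02, block 0.00954), *Cst3* (cystatin C; -0.93, block 0.0423) and *Irgm1* (-0.92, block 0.0374) kept an adjusted *p* under the threshold with the replicate block. *Dhrs3* (a retinal reductase; -1.16), *Cda* (cytidine deaminase; -1.12), *1300014I06Rik* (-1.07), *Ppp4r4* (-0.98) and *App* (amyloid precursor protein; -0.95) did not, at 0.053 to 0.103, nor did *Sez6* among the positive differences (2.06, block 0.073). With each hairpin averaged over days, 2 against 2, *Ddx60* passed by limma (adjusted *p* = 0.0392). *Tmem54*, *Cst3* and *Irgm1* did not pass that limma fit (adjusted *p* = 0.0675, 0.0795 and 0.187).

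Contractile and serum response factor target genes were lower in part. Of 19, 4 were lower, beside 1.57% of all genes tested, and none was higher, with a median of -0.22. By limma 0 were lower without Smarcc1.6 (8 at an unadjusted *p* under 0.05), 1 without Smarca4.6, and 2 without Smarcc1.7 or without Smarca4.4. *Ctgf*, a matricellular target of Yap and Srf, was at 90.7, 22.8, 82.1 and 141 rpm with Smarcc1.6 and at 91.9, 25.5, 94.9 and 144 rpm with Smarcc1.7, beside 87.0, 31.4, 101 and 148 rpm in Nons. With Smarca4.4 it was at 123, 42.6, 151 and 211 rpm and with Smarca4.6 at 130, 54.9, 172 and 190 rpm. The *Smarca4* libraries were above the control on each day, and both *Smarcc1* libraries were below it on days 5, 6 and 7 (difference -0.71, SE 0.087, adjusted *p* = 0.00074, block 0.00954). *Cyr61* (-0.60), *Tpm2* (-0.61) and *Myl9* (-0.59) passed without the block only (block 0.101, 0.101 and 0.0736). The integrin *Itgb1* was lower (-0.38, limma adjusted *p* = 0.0214, block 0.144) and the fibrillin *Fbn2* higher (1.19, adjusted *p* = 0.027, block 0.138) among 19 matrix and integrin genes. Of all genes tested 1.57% were lower and 2.75% higher.

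The interferon response list had 3 of 10 tested genes lower, beside 1.57% of all genes tested, *Isg15* (-1.34), *Rsad2* (-1.16) and the RNA sensor *Ddx58* (-0.61), and none with the replicate block (0.169, 0.171 and 0.211). Without Smarca4.4, Smarca4.6 or Smarcc1.6 limma called none (3 at an unadjusted *p* under 0.05 in each). *Isg15* and *Rsad2* were at mean levels of 1.55 and 1.28 rpm in *Smarcc1* knockdown. On the log2 scale both averaged under the filter level there, and they were tested only because of the *Smarca4* libraries. *Isg15* had no read in the Smarcc1.6 library of day 4, so its difference depends on the value given to a gene without reads. The list median was -0.63 on day 5 and 0.14 on day 7.

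**Figure D5:**
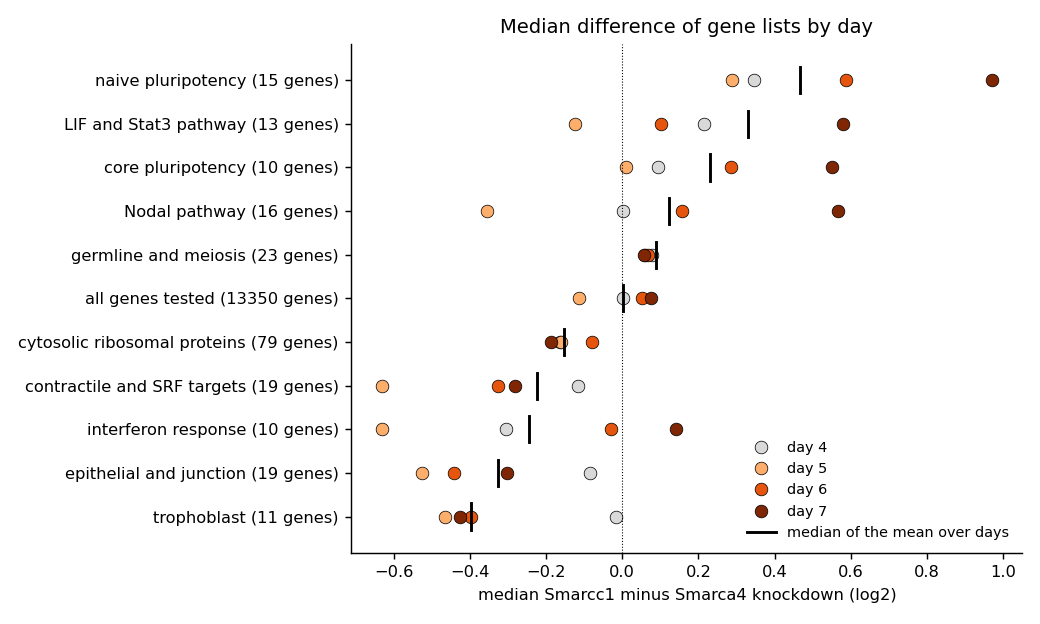
Median difference between the knockdowns (log2) of the genes in 10 lists and of all genes tested, for each day (circles, darker for later days) and for the mean over days (bars). The naive pluripotency median is largest on day 7 at 0.97, and the trophoblast and epithelial medians lie below 0 on all 4 days.

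In the polycomb lists, beside 1.57% of all genes tested that were lower and 2.75% that were higher, *Pcgf5* (-0.61, adjusted *p* = 0.00889, block 0.0817) and *Bmi1* (-0.56, adjusted *p* = 0.022, block 0.145), both PRC1 subunits, were lower among 20, and *Aebp2*, a PRC2 cofactor, was higher among 12 (0.46, adjusted *p* = 0.0397, block 0.248). The de novo methyltransferase *Dnmt3a* was the only one of 13 DNA methylation genes called (0.63, adjusted *p* = 0.0193, block 0.147). Of 16 other remodeller ATPases limma and limma-voom called none (1 at an unadjusted *p* under 0.05 by either), and 13 had positive values. The sign turned with single hairpins, with 4 of 16 positive without Smarcc1.7 (median -0.17) and 5 of 16 without Smarca4.6 (median -0.12), against 15 of 16 without Smarcc1.6 (median 0.40) and without Smarca4.4 (median 0.33). *Cdk2* (-0.47, block 0.203) was the only one called of 18 G1 cell cycle genes. The replication licensing factor *Cdc6* (-0.40, block 0.230) was the only one of 27 DNA replication genes, and *Perp* (-0.50, block 0.174) of 19 p53 targets. *Aldoc* (-0.63, block 0.101) was the only one of 26 glycolysis and hypoxia genes, and the ligand *Bmp4* (-0.75, block 0.0723) of 14 BMP pathway genes. All were lower, and these lists had 3.70% to 7.14% of genes called, beside 4.32% of all genes tested. In the integrated stress response list *Cth* (0.33, block 0.203) and *Nupr1* (0.75, block 0.145) were higher among 20, beside 2.75% of all genes tested. *Rfx6* was lower (-1.01, block 0.103) and *Neurog3* higher among 8 definitive and gut endoderm genes, beside 1.57% lower and 2.75% higher over all genes tested.

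In the cholesterol and fatty acid synthesis list *Cyp51* was at 85.5 to 183 rpm in *Smarcc1* knockdown and 107 to 357 rpm in *Smarca4* knockdown (-0.57, limma adjusted *p* = 0.00461, block 0.0389). *Pmvk* was lower too (-0.48, limma adjusted *p* = 0.0236, block 0.158). These were 2 of 27 genes tested, beside 1.57% of all genes tested that were lower, and none was higher. In fits without 1 hairpin the calls of this list were mostly lost. With each hairpin averaged over days, 2 against 2, *Cyp51* and *Pmvk* did not pass by limma (adjusted *p* = 0.282 and 0.480). The list median of -0.22 was -0.11 without Smarcc1.6 and -0.29 without Smarcc1.7. It was -0.20 without Smarca4.4 and -0.21 without Smarca4.6. All 79 cytosolic ribosomal protein genes had negative values, with a median of -0.15, and none was called by limma or limma-voom (0 at an unadjusted *p* under 0.05 by either). With quantile normalization 72 of the 79 were negative and the median was -0.087. The direction turned when 1 hairpin was left out, with 65 of 79 positive without Smarcc1.7 (median 0.064) and 51 of 79 positive without Smarca4.6 (median 0.024). Without Smarcc1.6 or Smarca4.4 all 79 were negative, with medians of -0.35 and -0.32, and none was called by limma (35 and 8 at an unadjusted *p* under 0.05).

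Among the genes named, *Pou5f1*, *Sox2*, *Tcl1*, *Dnmt3a*, *Bmp4*, *Neurod1*, *Cldn3*, *Ctgf*, *Nnat*, *Tmem54*, *Smarca2* and *Phf10* also overlap another entry, so that reads of the pair may be shared.

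X-linked genes did not stand apart in these male cells, which carry a single X chromosome. Of 483 tested 18 were higher and 6 lower (4.97% called, beside 4.30% of autosomal genes). Their median difference was -0.0061 relative to autosomal genes, and -0.051, 0.12, -0.032 and -0.094 on days 4 to 7.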

How the data were processed

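RNA-seq libraries were grouped by the target and hairpin in their titles. The authors trimmed the single-end 75 bp reads, aligned them to mm10 (the submitters' processing notes name HISAT2) and deposited log2 rpm values per gene from SeqMonk, with no stated use of strand. Genes with no read share a library's lowest value, worth 0.9 of a read, from which whole reads and totals were recovered (100% of values below 1000 reads were within 0.02 of a whole read). Detection limits cover counting error only, and intervals of differences come from the limma standard errors.

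Of 25965 entries, 13350 genes whose log2 values averaged 0 or more over the 16 libraries were fitted in limma 3.58.1 (R 4.3.3; lmFit, eBayes with trend) with 8 means, 1 for each knockdown and day, and 8 residual degrees of freedom. The contrast was *Smarcc1* minus *Smarca4* averaged over days, with Benjamini-Hochberg adjustment and a threshold of 0.05. Single days and an *F* test of change with day used the same fit. The replicate block was the hairpin series (duplicateCorrelation, correlation 0.217); hairpin numbers are names and pair nothing across targets. The code was tested on simulated data.

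Genes were named by rule: the targets, the 12 largest differences each way among called genes whose hairpins did not overlap on any day, the 8 largest each way of these same genes at a mean of 10 rpm, called members of 44 gene lists (808 genes, 682 tested), and the 6 smallest *F* test *p*-values at 10 rpm. Members and lists were chosen with earlier results of these data known. Hairpin guides came from the study's oligonucleotide table and were matched to GENCODE M21. Alternatives were other filters, scalings, models and left-out libraries.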

Additional observations from a re-analysis of the deposited data

Results flagged for a closer look

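For 7 of the genes named above, the *Smarcc1* libraries were all on one side of the *Smarca4* libraries on 1 day and all on the other side on another day. The same held for the BAF members *Brd7*, *Ss18l1*, *Dpf2*, *Smarcd1* and *Arid1b*, which are not named above. The limma *F* test of a change with day, adjusted over all genes, called none of these genes. *Gas6*, a ligand of the Axl receptors, was lower in *Smarcc1* knockdown on days 4 and 5 (-0.32 and -0.35) and higher on days 6 and 7 (0.77 and 1.52), with an adjusted *p* of 0.262. *Jam3*, a junctional adhesion molecule, had -0.076 on day 4 and 1.57 on day 7 (adjusted *p* = 0.365). *Smarca2* had -0.25 on day 4 and 1.07 on day 7 (adjusted *p* = 1), and *Sox2* had -0.015 on day 4 and 0.80 on day 7 (adjusted *p* = 0.844). *Krt7*, *Bmp4* and *Ddx58* had positive values on day 4 (0.19, 0.24 and 0.42) and negative ones on day 7 (-0.69, -0.89 and -0.79), with adjusted *p*-values of 0.708, 0.784 and 0.874.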

How the results depend on the processing

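The main fit called 577 genes, of which 249 were at a mean of at least 10 rpm. Every gene called in the next 3 settings was among the 577. The count became 193 when only genes at that level were refitted, 113 with the replicate block and 54 on hairpin means, 2 against 2. It was 343, 681, 191 and 64 without day 4, 5, 6 or 7, 67 to 271 without 1 hairpin, and 1109 without the Smarca4.4 library of day 5, of which 555 were among the 577. The count on day 5 went from 1 to 0 at 10 rpm and 2 with log2(rpm + 1) (*Fbxo40* and *Gm14569*). That on day 6 went from 40 to 6 at 10 rpm and 64 with log2(rpm + 1). That on day 7 went from 192 to 37 at 10 rpm and 94 with quantile normalization. In settings chosen after seeing the data, leaving out 1 hairpin gave 0 to 54 genes on day 5, 0 to 10 on day 6 and 0 to 24 on day 7, and leaving out the Smarca4.4 library of day 5 gave 534 on day 5, 77 on day 6 and 254 on day 7. Without day 4, 2, 18 and 34 genes were called on days 5, 6 and 7, without day 5, 114 and 334 on days 6 and 7, without day 6, 0 and 265 on days 5 and 7, and without day 7, 0 and 18 on days 5 and 6. The test of change with day, with 0 genes, gave 1 at 10 rpm (*Lefty2*), 2 with limma-voom, 1 with the replicate block (*Lefty2*) and 32 without the Smarca4.4 library of day 5. It gave 0 whichever hairpin was left out. The cause of these changes was not tested. Both targets were called in each setting. Of 90 genes named and called, 43 were called with the replicate block and 31 on hairpin means, 2 against 2. Without day 7, 29 of 87 were still called. *Klf4*, *Lefty2*, *Cldn3*, *Cldn7*, *Ctgf*, *Cyp51*, *Tmem54*, *Cst3* and *Irgm1* passed with the block but not on hairpin means (limma adjusted *p* of 0.0651 to 0.282). None of the 90 changed sign in any setting, and *Smarcc2*, not called, had -0.43 to 0.084 when 1 hairpin was left out. The distance excess, 8.37, was 0.569 at 10 rpm, 4.95 with log2(rpm + 1) and 7.31 on median-centred values, and the X-linked median moved by less than its spread between days. Depth limits genes near 3 reads, and values for 1 day rest on 2 libraries a group.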
